A study of Mus musculus with 4 samples.

Results

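The genes described here are 10 factors and receptors by which the stroma of bone marrow supports blood stem and progenitor cells: Cxcl12, Kitl, Il7, Csf1, Angpt1, Ptn, Vcam1, Lepr, Pdgfra and Pdgfrb. They were taken by name from a table of 17230 rows of read counts, where all 10 had a row and all 10 passed the low-count filter that left 14330 tested genes. The eGFP row of the same table was set beside them in every library. FACS-sorted cells of femurs, taken from mice on postnatal day 21 after tamoxifen at embryonic day 12.5, were profiled by bulk RNA sequencing. All mice carried 1 GFP allele of Cxcl12, given as Cxcl12(GFP/+), and a tdTomato lineage reporter, given as R26R(tdTomato/+). The Hes1-derived group (2 libraries, replicates 1 and 3) also had the genotype Hes1(CreER/+), and the Fgfr3-derived group (2 libraries, replicates 2 and 3) also had Fgfr3-iCreER. The Cre line and the lineage it marks therefore cannot be told apart in any comparison. The cell type labels name both groups CXCL12-abundant reticular (CAR) cells positive for GFP and tdTomato, whereas the extraction protocol names tdTomato alone, so that the gate on GFP is uncertain. Whether a library holds a single animal or a pool is not given, so the p-values measure only the spread between these libraries.

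CAR cells are perivascular stromal cells of the marrow with long processes, and they are the main marrow source of the chemokine CXCL12 and of stem cell factor, the product of Kitl. Blood stem and progenitor cells carry the matching receptors, CXCR4 and KIT, and depend on these signals to stay in the marrow and to survive. The leptin receptor and the PDGF receptors are used to recognise this stroma, and IL-7 from the same cells supports early B lymphocytes. In the Cxcl12-GFP allele the GFP coding sequence sits in the Cxcl12 locus, so its transcript is driven by the Cxcl12 promoter.

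The promoters of the 10 genes were looked up in RefSeq (GRCm38.p6), where Cxcl12, Kitl, Csf1, Ptn, Lepr and Pdgfra had an entry and Il7, Angpt1, Vcam1 and Pdgfrb did not. The stretches of Cxcl12, whose promoter also drives eGFP, and of Csf1, the member that passed the test between the groups, are the 250 bases before the transcription start, with the GC box GGGCGG in capitals on either strand. The Kitl stretch shows 30 bases around its TATA box TATAAA, in capitals, which begins 25 bases before the RefSeq start (GENCODE places the start of the gene further upstream). Each is written 5′ to 3′ along the strand of the gene.
Cxcl12, chr6:117168285-117168534, plus strand: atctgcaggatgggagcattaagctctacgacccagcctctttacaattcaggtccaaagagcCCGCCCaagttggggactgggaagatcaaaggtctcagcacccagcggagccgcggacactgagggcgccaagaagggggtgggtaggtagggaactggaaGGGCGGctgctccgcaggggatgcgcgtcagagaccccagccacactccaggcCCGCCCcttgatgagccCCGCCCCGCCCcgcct
Csf1, chr3:107760470-107760719, minus strand: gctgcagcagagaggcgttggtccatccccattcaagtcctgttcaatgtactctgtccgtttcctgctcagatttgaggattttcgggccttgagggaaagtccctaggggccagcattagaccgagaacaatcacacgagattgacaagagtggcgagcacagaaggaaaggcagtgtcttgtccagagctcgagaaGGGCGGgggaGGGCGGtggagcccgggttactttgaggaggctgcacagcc
Kitl, chr10:100015784-100015813, plus strand: gggagggagctgTATAAAaagcgctggcgg
The GC box occurred 5 times in the Cxcl12 window, where the last 2 matches share a base, and 2 times in the Csf1 window. In the 250 bases of the other members with an entry, Kitl had 3, Lepr 0 or 1 by entry, and Ptn and Pdgfra 0. At least 1 match was present in 32.7% of the 32851 windows of this length in the table. TATAAA was found, on either strand, in 12.4% of the windows, and among the members with an entry in Kitl alone. TGTTTNC, a form of the forkhead motif, stood in 17.8% of the windows and in none of these members. These matches describe the letters of the windows only.

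Each library held between 22745128 and 26804832 counted reads, with similar numbers of rows detected (15931 to 16221). Blood cell RNA was present in all 4 libraries and differed between the groups. The 13 pan-leukocyte markers summed to 6779 and 8298 CPM (a count scaled to the library total) against 1910.1 and 4096 CPM. Here and below, library values are given for Hes1-derived replicates 1 and 3 against Fgfr3-derived replicates 2 and 3, in that order. All 13 had reads in every library, and 8 were higher and none lower in the Hes1-derived group. Calls in this paragraph are by the edgeR test used below, at an adjusted p under 0.05. Of all tested genes, 5.24% were called higher and 6.56% lower by it. Osteoblast-lineage markers went the other way, at 5187 and 5432 against 22401 and 27145 CPM over 14 genes, of which 9 were lower and none was higher. Mmp13 alone made up a large part of these sums, at 1128.5 and 1105 against 11810 and 11706 CPM. Phex was the 1 gene with a positive log2 fold change (0.92) and did not pass. It had 28.0 and 26.1 against 18.9 and 8.36 CPM. A list of 22 reticular stroma genes that holds none of the 10 members, such as Foxc1, Adipoq and Lpl, summed to 20388 and 12889 against 27788 and 19864 CPM, and all 22 were detected in every library, with 5 lower, 0 higher and a median log2 fold change of −0.595. Its 2 most abundant genes were Igfbp4 (4266 and 2702 against 7040 and 5126 CPM) and Gpx3 (3775 and 1704 against 2630 and 3215 CPM). Of the other marker lists, 10 of 10 tested B lymphocyte, 7 of 8 erythroid, 1 of 10 neutrophil, 2 of 9 macrophage, 1 of 11 endothelial and 3 of 6 fibroblast genes were higher and none lower, 6 of 8 mural genes were lower and none higher, and no gene of 9 chondrocyte and 7 megakaryocyte genes passed in either direction. The single calls among 10 neutrophil and 11 endothelial genes are close to the share of all tested genes. In bulk samples, fewer cells of a type and less RNA per cell cannot be told apart.

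**Figure D1:**
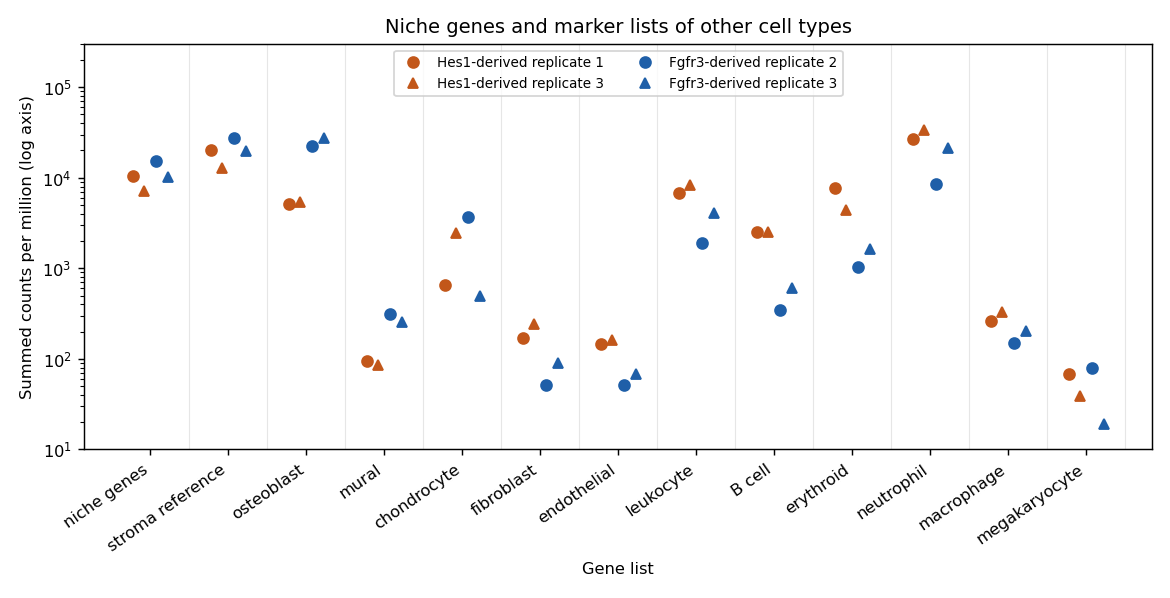
Summed CPM (log axis) of the 10 niche genes and of 12 marker lists in each of the 4 libraries, Hes1-derived in orange and Fgfr3-derived in blue. The leukocyte, B cell, erythroid, neutrophil, macrophage, endothelial and fibroblast lists were higher in both Hes1-derived libraries, and the osteoblast and mural lists in both Fgfr3-derived libraries.

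All 10 niche genes had a lower fitted level in the Hes1-derived libraries, but only Csf1 passed the test. The comparison asks how these reticular cells differ between the origins named in the series title, fetal perichondrium and chondrocytes. By edgeR's quasi-likelihood test with Benjamini-Hochberg adjustment over 14330 genes, 1 of 10 members was lower and none was higher, beside 6.56% of all tested genes called lower and 5.24% called higher. At an unadjusted p under 0.05 the members lower were 2 (Csf1 and Pdgfrb) and the members higher were 0. The share of all tested genes at this looser threshold was not computed, so these 2 counts have no background to be read against. The median log2 fold change of the members (Hes1-derived minus Fgfr3-derived) was −0.64, and that of all tested genes −0.02, of which 51.5% had a negative value. For Csf1, Pdgfra and Pdgfrb both Hes1-derived libraries lay below both Fgfr3-derived libraries, and the other 7 members overlapped. Of all tested genes 28.9% were separated in this direction and 33.2% in the other.

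**Figure D2:**
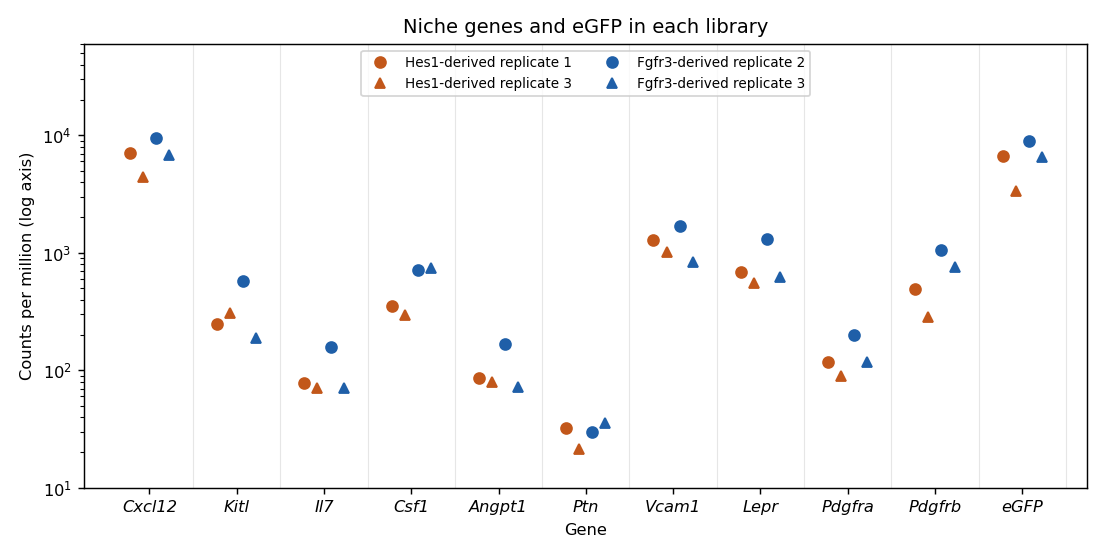
CPM (log axis) of the 10 niche genes and eGFP in the 4 libraries, 1 point per library, Hes1-derived in orange and Fgfr3-derived in blue. Fgfr3-derived replicate 2 was the highest library for 8 of the 10 genes, and the share of all tested genes highest there was not computed. The groups were separated for Csf1, Pdgfra and Pdgfrb, and 28.9% of all tested genes were separated in this direction.

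Among the secreted factors, Cxcl12 (chr6:117168535-117181367, GRCm38, GENCODE M21) was by far the most abundant. It retains blood stem cells and B-cell precursors in the marrow through CXCR4. Cxcl12 had 7054 and 4390.3 CPM against 9514 and 6858 CPM. The lowest library was thus Hes1-derived and the highest Fgfr3-derived. The log2 fold change was −0.58 ± 0.41 (SE), with an adjusted p of 0.396 by edgeR.

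Csf1 (chr3:107741048-107760469, minus strand) encodes the growth factor of macrophages and osteoclasts, and it was the member with the clearest separation. Csf1 had 355 and 294 CPM against 716 and 747 CPM. The groups did not overlap, and the spread within either group was small beside the distance between them. The Hes1-derived mean was 325 ± 43.6 CPM and the Fgfr3-derived mean 732 ± 21.8 CPM (SD, n = 2 each), a 2.36-fold difference (log2 fold change −1.24 ± 0.25, edgeR adjusted p = 0.026). When Hes1-derived replicate 3 was left out the call ended (−1.08, adjusted p = 0.112; 1.89% of all genes were then called lower), as it did when Fgfr3-derived replicate 2 was left out (−1.25, adjusted p = 0.070; 1.10% of all genes). It also ended after scaling to eGFP (−0.46, adjusted p = 0.701) and to the stroma list (−0.58, adjusted p = 0.527). Osteoblast-lineage markers, summed above, were higher in the same Fgfr3-derived libraries, and their part in the Csf1 difference was not tested.

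Kitl, Il7 and Angpt1 shared a pattern that followed the library more than the group. Lepr, described below with the receptors, shared it too. Kitl (chr10:100015630-100100416) encodes stem cell factor, and its level was 249 and 308 CPM against 577 and 190.3 CPM. The highest and the lowest library for Kitl were thus of the same group. Il7 (chr3:7569994-7613760, minus strand), the cytokine of early B lymphocytes, had 77.8 and 71.1 CPM against 159 and 71.4 CPM. Angpt1 (chr15:42424723-42676977, minus strand), a ligand of the receptor TEK on endothelial and blood stem cells, had 86.2 and 80.1 CPM against 168 and 71.9 CPM. For Il7 and Angpt1, 3 libraries lay together and Fgfr3-derived replicate 2 stood above them. The log2 fold changes were −0.54 ± 0.47 for Kitl, −0.70 ± 0.36 for Il7 and −0.60 ± 0.38 for Angpt1, with adjusted p of 0.489, 0.248 and 0.334. Without Fgfr3-derived replicate 2 the log2 fold changes turned to 0.50, 0.01 and 0.16. Without Fgfr3-derived replicate 3 all 3 genes passed as lower (−1.07, −1.11 and −1.04, with adjusted p of 0.044, 0.027 and 0.031), when 6.21% of all tested genes did.

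Ptn (chr6:36714929-36810220, minus strand) encodes pleiotrophin, a heparin-binding growth factor that acts on blood stem cells, and it was the least abundant member. Its libraries read 32.5 and 21.6 CPM against 29.9 and 35.4 CPM, with overlapping groups (−0.33 ± 0.29, adjusted p = 0.487). Ptn and Csf1 were the members whose highest library was Fgfr3-derived replicate 3 rather than replicate 2.

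Vcam1 (chr3:116109949-116129688, minus strand) encodes the adhesion molecule that holds blood cells through the integrin of Itga4 and Itgb1. It had 1290.4 and 1013 CPM against 1685 and 838 CPM. The Hes1-derived libraries lay between the Fgfr3-derived ones, and the fitted difference was the smallest of the 10 (−0.20 ± 0.38, adjusted p = 0.779). It turned to 0.41 without Fgfr3-derived replicate 2.

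The receptors differed among themselves. Lepr (chr4:101717404-101815352), the leptin receptor, had 691 and 557 CPM against 1324 and 626 CPM, and its groups overlapped (−0.71 ± 0.38, adjusted p = 0.267). Without Fgfr3-derived replicate 2 its log2 fold change was −0.05. Pdgfra (chr5:75152292-75198215), the receptor of PDGF-A and PDGF-C, had 117 and 89.6 CPM against 199 and 118 CPM. Its groups were separated only by the small gap between Hes1-derived replicate 1 and Fgfr3-derived replicate 3 (−0.69 ± 0.30, adjusted p = 0.176).

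Pdgfrb (chr18:61045150-61085061), the receptor of PDGF-B on perivascular cells, showed the largest fitted difference of the 10 without passing the test. It had 493 and 283 CPM against 1052 and 762 CPM, with no overlap. The log2 fold change was −1.29 ± 0.35, a 2.44-fold difference, and the adjusted p was 0.058 by edgeR. It passed as lower with DESeq2 (−1.26, adjusted p = 0.0013), limma-voom (−1.33, adjusted p = 0.042) and limma on the deposited log2 values (−1.04, adjusted p = 0.042), with a minimum count of 50 (adjusted p = 0.0495) and when Hes1-derived replicate 1 was left out (−1.79, adjusted p = 0.021). The share of all tested genes called lower was 10.9% with DESeq2, 7.32% with limma-voom, 7.56% with limma on the log2 values, 7.98% with the minimum count of 50 and 6.72% when Hes1-derived replicate 1 was left out. Mural cell markers were higher in the same Fgfr3-derived libraries, with 94.7 and 84.6 CPM against 316 and 255 CPM summed over 8 genes, all 8 detected in every library. Abcc9 (37.0 and 30.3 against 174 and 118 CPM) and Acta2 (14.9 and 14.7 against 43.2 and 38.3 CPM) were the most abundant of them. Of the others, Kcnj8 did not pass (−0.55), and Myh11, a gene of smooth muscle, had 5.45 and 1.74 against 1.19 and 0.522 CPM (2.01 ± 0.77, adjusted p = 0.132). Their part in the Pdgfrb difference was not tested.

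Levels of different genes can be compared only per length, here as CPM per kilobase of annotated exon (RPKM) over the union of GENCODE exons, which may be longer than the transcripts present. Averaged over the 4 libraries, Cxcl12 stood at 851 RPKM (537 to 1164) and was above the next gene in 4 of 4 libraries with no overlap of the ranges. Vcam1 (136 RPKM), Pdgfrb (118 RPKM), Lepr (113 RPKM) and Csf1 (100.02 RPKM) followed, with overlapping ranges and an order that changed between libraries. Kitl came next at 56.0 RPKM (32.2 to 97.6). Angpt1 (19.5 RPKM), Il7 (16.7 RPKM), Pdgfra (13.1 RPKM) and Ptn (8.70 RPKM) kept this order in 4 of 4 libraries, although the ranges of neighbours over libraries overlapped.

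The eGFP row reads out the same promoter as Cxcl12 and gave a second view of the members. It had 6667 and 3366 CPM against 9028 and 6591 CPM, so Hes1-derived replicate 3 had the lowest and Fgfr3-derived replicate 2 the highest level. The log2 fold change of eGFP was −0.70 ± 0.45 (adjusted p = 0.349 by edgeR), close to the members' median of −0.64. Reads of Cxcl12 per 1000 eGFP reads were 1058 and 1304 against 1054 and 1041. In 3 of the 4 libraries the ratio thus lay within a narrow range, and Hes1-derived replicate 3 stood above them. With 2 libraries against 2, an exact two-sided permutation test of such a ratio cannot go below p = 0.333, so that no ratio was tested on its own.

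Per eGFP read, 8 of the 10 members were highest in Hes1-derived replicate 3, and the exceptions were Csf1 and Pdgfrb. This library had the fewest eGFP reads, which raises the ratio of every gene in it. The share of all tested genes highest there was not computed, so the count is not a result about the members. Kitl had 37.3 and 91.5 reads per 1000 eGFP reads against 63.9 and 28.9, a spread within both groups that exceeded the distance between them. Vcam1 had 194 and 301 reads per 1000 eGFP reads against 187 and 127, and was, with Cxcl12, a member higher in both Hes1-derived libraries on this scale. For both genes the gap between Hes1-derived replicate 1 and Fgfr3-derived replicate 2 was small (1058 against 1054 for Cxcl12). Pdgfrb, at 73.9 and 84.0 against 117 and 116, was the only member lower in both Hes1-derived libraries. Csf1 overlapped, at 53.3 and 87.3 against 79.4 and 113. Of all tested genes, 46.0% were higher and 8.0% lower in both Hes1-derived libraries on this scale, so that separation in the higher direction was common.

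**Figure D3:**
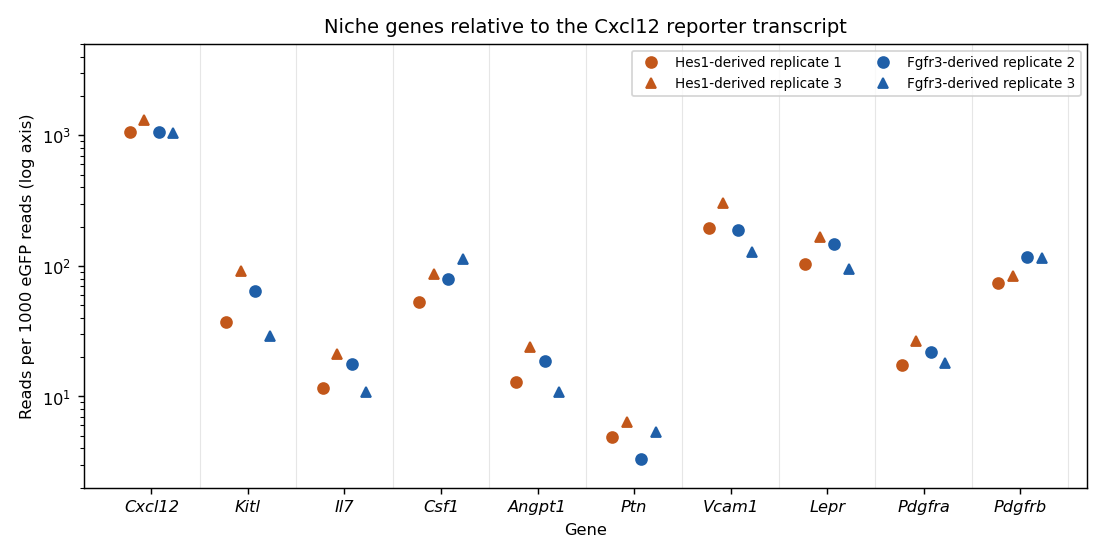
Reads of each niche gene per 1000 eGFP reads (log axis), 1 point per library, Hes1-derived in orange and Fgfr3-derived in blue. Hes1-derived replicate 3, the library with the fewest eGFP reads, was highest for 8 of 10 genes, and the share of all tested genes highest there was not computed. Pdgfrb was lower in both Hes1-derived libraries than in both Fgfr3-derived libraries.

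A fit scaled to eGFP in place of the usual TMM factors moved the median of all tested genes from −0.02 to 0.83, and a fit scaled to the stroma list moved it to 0.69. Under either scaling 8 of the 10 members had a positive log2 fold change, Csf1 and Pdgfrb remained negative, and none passed the test in either direction. All tested genes were called lower in 0.133% and higher in 2.26% of cases after scaling to eGFP, and in 0.670% and 8.05% after scaling to the stroma list. The members' median was 0.19 after scaling to eGFP and 0.09 after scaling to the stroma list, both below the shifted median of all genes. Pdgfrb stood at −0.56 ± 0.73 and −0.63 ± 0.59, and Vcam1 at 0.66 ± 0.73 and 0.56 ± 0.59 in these fits, so the errors were as large as or close to the differences. Both scalings raised genes by similar though unequal amounts. Scaling to eGFP took Kitl from −0.54 to 0.47 and Pdgfrb from −1.29 to −0.56. A member's place relative to the median of all tested genes was therefore largely fixed by the TMM fit. With 10 of 10 members lower each time, the members' median was 0.62 below it with TMM. It was 0.64 below after scaling to eGFP and 0.59 below after scaling to the stroma list. These distances are thus no separate support for a difference.

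**Figure D4:**
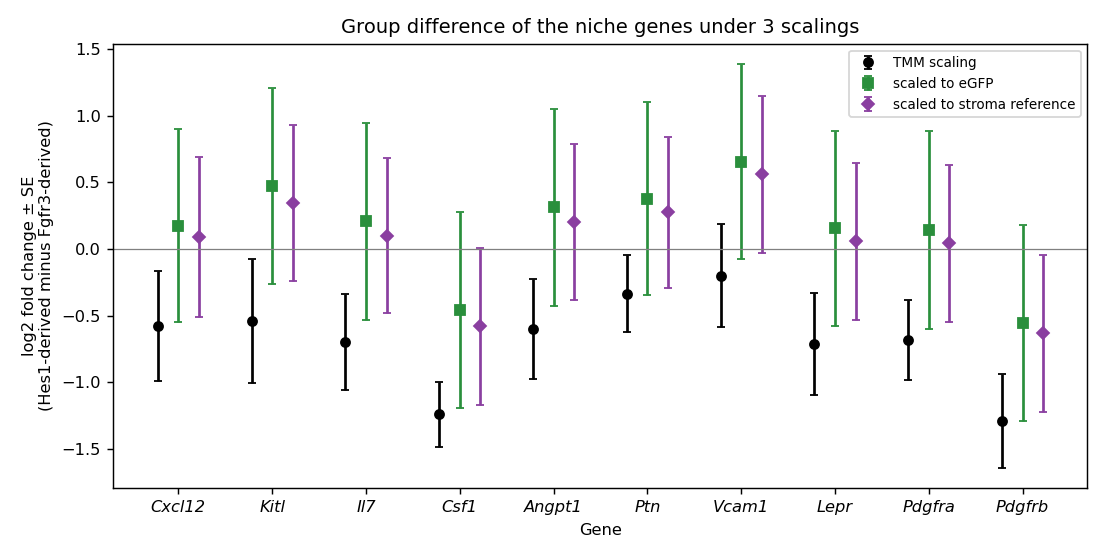
Log2 fold change (Hes1-derived minus Fgfr3-derived) of each niche gene with its standard error, fitted with TMM factors (black circles), scaled to eGFP (green squares) and scaled to the stroma list (purple diamonds). With TMM all 10 values lie below 0, and under both other scalings only Csf1 and Pdgfrb do.

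Kitl, Angpt1, Il7, Lepr, Vcam1 and Pdgfra spread more between the Fgfr3-derived libraries, and Cxcl12, Csf1, Ptn, Pdgfrb and eGFP more between the Hes1-derived ones. In the Fgfr3-derived group replicate 2 exceeded replicate 3 in Kitl by 3.03-fold, in Angpt1 by 2.34-fold, in Il7 by 2.22-fold, in Lepr by 2.12-fold and in Vcam1 by 2.01-fold. Of all tested genes, 2.27% had a ratio at least as high as that of Kitl, 3.71% as that of Angpt1, 4.31% as that of Il7, 4.91% as that of Lepr and 5.70% as that of Vcam1. Cxcl12 (1.39-fold), Pdgfrb (1.38-fold) and eGFP (1.37-fold) differed less, and Csf1 (0.959-fold) and Ptn (0.842-fold) were slightly lower in replicate 2. The median log2 ratio of the 10 members was 0.88, and that of all tested genes 0.001.

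Other marker lists moved between the same Fgfr3-derived libraries. Of the 22 stroma genes 19 were higher in replicate 2, with a median log2 ratio of 0.54, while none of the 13 pan-leukocyte genes was (median −1.05). Among these 19 stroma genes were the adipocyte-type genes Lpl (4629 and 1666 CPM in replicates 2 and 3) and Adipoq (873 and 436 CPM), named after their values were seen. Chondrocyte markers summed to 3725 CPM in replicate 2 and 491 CPM in replicate 3, with Col2a1 at 3082 and 400 CPM. The part of these cells in the spread of the members was not tested.

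The Hes1-derived libraries differed in another way. Replicate 1 exceeded replicate 3 in eGFP by 1.98-fold, in Pdgfrb by 1.74-fold, in Cxcl12 by 1.61-fold and in Ptn by 1.51-fold, whereas Il7 (1.09-fold) and Angpt1 (1.08-fold) hardly differed and Kitl was lower in replicate 1 (0.807-fold). The members' median log2 ratio was 0.33 and that of all tested genes −0.03, and 22 of the 22 stroma genes were higher in replicate 1 (median 0.60). Of the pan-leukocyte genes 1 of 13 was higher in replicate 1 (median −0.33). Chondrocyte markers summed to 658 CPM in replicate 1 and 2441 CPM in replicate 3, and 1 of 9 was higher in replicate 1 (median −2.21). In this pair the stroma and chondrocyte lists thus moved in opposite directions, whereas both were higher in replicate 2 of the Fgfr3-derived pair.

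**Figure D5:**
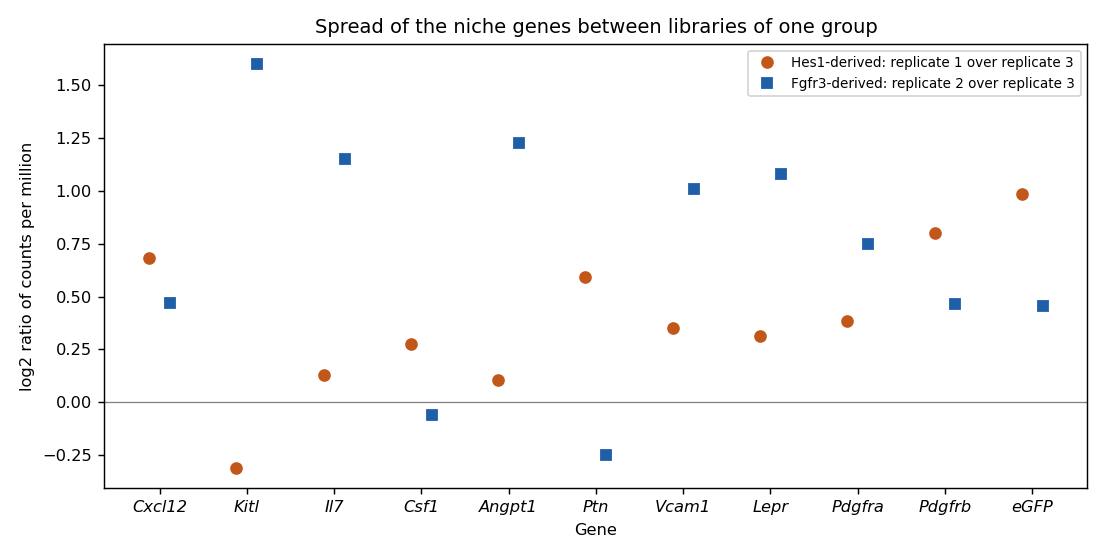
Log2 ratio of CPM between the libraries of a group for each niche gene and eGFP, Hes1-derived replicate 1 over 3 (orange circles) and Fgfr3-derived replicate 2 over 3 (blue squares). Kitl, Angpt1, Il7, Lepr and Vcam1 differed by 1.01 to 1.60 in the Fgfr3-derived pair and by −0.31 to 0.35 in the Hes1-derived pair.

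Likeness over the 4 libraries was described as the root mean square difference between profiles of log2(CPM + 0.5) centred on their mean, which with 4 libraries of shared depth and blood content is a description only. The tested genes nearest to eGFP were 3110021A11Rik (0.0396), BC031361 (0.0416) and Ntn4 (0.0432). Among the members Cxcl12 was the nearest to eGFP (0.135, rank 66 of 14329), followed by Pdgfra (0.244, rank 514), and Kitl was the farthest (0.65, rank 8034). Il7 and Angpt1 were each other's nearest fellow member at 0.062, and Angpt1 ranked 2 among all 14329 genes by nearness to Il7. Il7 was also the nearest member to Lepr (0.0715, rank 6), and Angpt1 to Kitl (0.21, rank 47) and to Vcam1 (0.208, rank 267). Lepr was nearest to Pdgfra (0.122, rank 129) and Pdgfra to Cxcl12 (0.145, rank 214). Csf1 and Pdgfrb were each other's nearest member but less close (0.266). Pdgfrb ranked 997 by nearness to Csf1, and Csf1 ranked 663 by nearness to Pdgfrb. Cxcl12 was the nearest member to Ptn (0.284, rank 2552).

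Other molecules known from blood cell niches were read from a separate list of 46 genes, of which 43 were tested. In the edgeR fit 9 of the 43 were lower in Hes1-derived libraries and none was higher, beside 6.56% and 5.24% of all tested genes. The median log2 fold change was −0.64, and 29 of the 43 values were negative. By p the first 5 of the 9 were Spp1, the gene of the bone matrix protein osteopontin (−3.72), Tnfsf11, which encodes the osteoclast factor RANKL (−1.77), Cdh2 for N-cadherin (−1.75), Vegfa (−1.35) and fibronectin, Fn1 (−1.15). Tnfsf11 had 133 and 132 CPM against 508 and 353 CPM, and Vegfa had 244.8 and 244.5 CPM against 682 and 501 CPM. Tnfsf11 and Vegfa were thus separated by more than the spread in either group. Spp1 and Tnfsf11 are also made by cells of the osteoblast lineage, whose summed markers were 5187 and 5432 against 22401 and 27145 CPM. Their part in these differences was not tested. The calls fell from 9 to 4 when Hes1-derived replicate 3 was left out, to 2 when Fgfr3-derived replicate 2 was and to 1 after scaling to eGFP or to the stroma list. The share of all tested genes called lower was 1.89%, 1.10%, 0.133% and 0.670% in these fits. Of these 5 genes, Cdh2, Vegfa and Fn1 lost their calls when either of these libraries was left out, Fn1 also when Hes1-derived replicate 1 was, and Tnfsf11 with Cdh2, Vegfa and Fn1 after either scaling.

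The most abundant other niche factors that did not pass were the matrix protein tenascin C, Tnc (2573 and 1592 against 6645 and 4012 CPM, −1.42 ± 0.42, adjusted p = 0.070), and Gas6, a ligand of TAM receptors (1952 and 1254 against 2523 and 2648 CPM, −0.75 ± 0.34, adjusted p = 0.188). Tnc passed with DESeq2 (adjusted p = 0.00046), with limma-voom (adjusted p = 0.047) and without Hes1-derived replicate 1 (adjusted p = 0.040). None was higher by the adjusted edgeR test. At an unadjusted p under 0.05, 3 of the 43 were higher, and the share of all tested genes at that threshold was not computed. They were Il34 (1.57), the other ligand of the CSF1 receptor, Ccl19 (1.24) and Tnfsf13b, the B-cell factor BAFF (1.08), named after their values were seen. DESeq2 called these 3 higher, a smaller part of the 43 than the 9.97% called among all tested genes.

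The binding partners of the 10 members changed in both directions. In Hes1-derived libraries, 6 of 18 tested partners rose and 5 fell, beside 5.24% and 6.56% of all tested genes. The receptors higher there were Il7r, which binds IL-7 (2.27), Cxcr4, which binds CXCL12 (1.94), the integrin subunits Itga4 (1.83) and Itgb7 (1.65), and the shared cytokine receptor chain Il2rg (1.18). The sixth was Csf1r, the receptor of CSF1, which had 128 and 188 CPM against 49.3 and 80.5 CPM (log2 fold change 1.21 ± 0.30, adjusted p = 0.044), named after its values were seen. Il7r had 46.6 and 70.6 CPM against 12.5 and 10.6 CPM. These 6 genes are used by blood cells, as are Kit and Itgb1. In the same libraries the pan-leukocyte list had a median log2 fold change of 1.30 and the B lymphocyte list one of 2.30, and the B lymphocyte sums were 2503 and 2533 against 349 and 605 CPM. Their part in the receptor differences was not tested. Kit, the receptor of stem cell factor, did not follow them (33.0 and 48.2 against 73.5 and 47.4 CPM, −0.65 ± 0.29, adjusted p = 0.181).

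The 5 partners that fell were the heparan sulphate proteoglycan Sdc3 (−2.59), which binds pleiotrophin, the PDGF receptor ligands Pdgfc (−2.19) and Pdgfa (−1.30), and the integrin subunits Itga9 (−1.52) and Itgb1 (−1.16). Pdgfc had 7.30 and 5.71 CPM against 27.5 and 29.4 CPM, and Pdgfa 12.1 and 10.2 against 26.9 and 25.6 CPM. These ligands of PDGFRA were thus separated by more than the spread in either group, which Pdgfra itself was not. Pdgfd, a ligand of PDGFRB, had 32.5 and 25.8 against 48.8 and 47.4 CPM and did not pass (−0.79 ± 0.24, adjusted p = 0.071). After scaling to eGFP none of the 5 passed, and after scaling to the stroma list 1 did (Sdc3). Leaving out Hes1-derived replicate 3 took the 6 higher calls to 3 and the 5 lower calls to 3, when 2.26% of all tested genes were higher and 1.89% lower. With Fgfr3-derived replicate 2 left out instead, 1 higher call (Il7r) and 2 lower calls were made, beside 0.558% and 1.10% of all tested genes.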

How the data were processed

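Transcripts were sequenced in bulk from 2 Hes1-derived and 2 Fgfr3-derived libraries. The deposited counts are whole read numbers per gene symbol, and the second deposited table used holds log2 values (regularized), both per the file names. The submitters' processing notes give the build mm10 and list HTSeq, DESeq2, TopHat2 2.0.13, Cufflinks, Cuffdiff, FastQC and Bowtie2 2.2.1, without role or order. Per the labels, libraries were made with Nextera XT. The annotation and strand setting are not given in the sources used here, so reads of Il7, Angpt1, Vcam1 and Pdgfra may include those of an overlapping gene on the opposite strand (GENCODE M21). Totals were 22745128 to 26804832 reads, and CPM divides a count by its library total.

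The groups were compared with the quasi-likelihood test of edgeR 4.0.16 (R 4.3.3; TMM factors, robust dispersions, filterByExpr with a minimum count of 10), with Benjamini-Hochberg adjustment over 14330 genes and a threshold of 0.05. The fit has 2 residual degrees of freedom, and a standard error was obtained by dividing the size of the log2 fold change by the root of the F statistic. The biological coefficient of variation was 27.8%. Alternatives were DESeq2 1.42.0, limma-trend and limma-voom (limma 3.58.1), library-total, RLE and upper-quartile scaling, other filters, scaling to eGFP or to a stroma list (22 genes), and leaving out each library. On simulated data with 14330 genes, edgeR called 74 of 100 genes with a 4-fold and 17 of 100 with a 2-fold change, and 5 unchanged genes.

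The members and lists were chosen with earlier results of these data known. Named are all members and eGFP, up to 5 called genes per direction of the other niche factors and partners with the 2 most abundant that did not pass, the 3 genes nearest to eGFP, and marker genes beside a result. Promoter sequences are from RefSeq (GRCm38.p6), matched by symbol for 6 of 10 members.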

Additional observations from a re-analysis of the deposited data

How the results depend on the processing

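The 15 alternatives gave 464 log2 fold changes of the members, eGFP and other named genes, of which 386 kept their direction and side of the threshold. Of 105 counts of calls and medians of the members, 73 stayed within 1.5 times the reported count or within 1 SD between libraries of the reported median. The 1 member called lower became 2 with DESeq2, limma-voom, limma-trend and a minimum count of 50, and 0 after scaling to eGFP and to the stroma list. Leaving out each library in turn gave 0 to 4 members lower, 2 to 13 other niche factors lower (9 with all libraries), 2 to 6 partners lower (5) and 1 to 6 partners higher (6). After scaling to eGFP and to the stroma list, 1 and 1 other niche factors and 0 and 1 partners were lower. The share of all tested genes called lower was then 0.133% and 0.670%. The 0 other niche factors higher became 1 with RLE, upper-quartile and library-total scaling, limma-voom, limma-trend, no filter and a minimum count of 50. These 7 fits called 785 to 976 genes higher, of 12508 to 17230 tested. The count became 3 with DESeq2 and after scaling to the stroma list, which called 9.97% and 8.05% of all tested genes higher. In none of these fits was the part of the 43 above the share of all tested genes. DESeq2 called 10.9% of all tested genes lower. The members' median log2 fold change of −0.64 became 0.19 and 0.094 after scaling to eGFP and to the stroma list, and lay between −1.06 and −0.15 when a library was left out. Signs turned after scaling to eGFP for Cxcl12 (0.17), Kitl (0.47), Il7 (0.21), Angpt1 (0.31), Ptn (0.38), Vcam1 (0.66), Lepr (0.155), Pdgfra (0.14) and Kit (0.33), and after scaling to the stroma list for Cxcl12 (0.089), Kitl (0.35), Il7 (0.10), Angpt1 (0.205), Ptn (0.27), Vcam1 (0.56), Lepr (0.058), Pdgfra (0.044) and Kit (0.17). Both scalings raise every gene's value by construction, since both references are lower in Hes1-derived libraries. Relative to the median of all tested genes, 10 of 10 members were lower in the fit reported and under each alternative but 2. There were 9 when Hes1-derived replicate 3 was left out and 7 when Fgfr3-derived replicate 2 was. For the alternatives that only rescale the libraries this was largely fixed by the fit reported, since they move genes by similar amounts. When a library was left out, Kitl lay between −1.07 and 0.50, Il7 between −1.11 and 0.012, Angpt1 between −1.04 and 0.16, and Vcam1 between −0.57 and 0.41. In these fits the lone library of a group is assumed to vary like the other group, and the cause of the changes was not tested. No paired analysis was possible because the groups share only replicate number 3. With 2 libraries per group the precision is low, and a member that did not pass is not shown to be equal between the groups.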
